A study of Rattus norvegicus with 241 samples.

Results

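The basal keratins KRT5, KRT14, KRT15 and KRT17 were followed through every expression table of a rat study on short-term inhibition of TGFβ signaling in the mammary gland. They were picked by gene symbol, ignoring case, and are 4 of the 21707 genes found in any table. All 4 were present in every bulk table (12693 to 15826 genes each) and in each of the 3 single-cell tables. The data comprise 202 bulk RNA-seq samples of sorted cells and 39 single-cell libraries from female rats of the inbred ACI and outbred Sprague Dawley (SD) strains. Rats received TGFBRi (LY2157299, galunisertib, a small-molecule inhibitor of the TGFBR1 kinase) or vehicle by gavage, at 75 mg/kg per dose and 2 doses a day, for 10 days, or for 21 days in the estradiol experiment.

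Young virgin ACI rats were dosed from 35 days of age, and 3 rats per treatment were collected at each of day 0, 7 and 14, counted from the end of dosing. Young virgin SD rats were dosed from 24 days of age, with 4 rats per treatment at day 0. Adult ACI rats, virgin or parous, were dosed at 18 to 24 weeks of age, and the epithelial fractions came from 4 rats of each group at day 0. In the carcinogen experiment all SD rats, dosed from 21 days of age, received the carcinogen N-nitroso-N-methylurea (NMU) after treatment, in 1 injection of 50 mg/kg, and were collected 87 days later, with normal glands sorted from 3 vehicle rats that bore tumors and from 3 TGFBRi rats without and 3 with tumors. EPCAM+ cells of NMU-induced tumors came from 3 rats per treatment. In the estradiol (E2) experiment ACI rats were dosed from 38 days of age and then given an implant holding air or 37 mg of E2. Luminal cells of their normal glands came from 4 vehicle and 3 TGFBRi rats without E2 and, with E2, from 4 vehicle rats with tumors and from 4 TGFBRi rats without and 2 with tumors. Basal cells were sorted as CD24+CD29high and luminal cells as CD24+CD29low from CD31-CD45- cells, and CD45+ leukocytes apart. Single-cell libraries were all made at day 0, from sorted basal and luminal cells of 3 vehicle and 3 TGFBRi ACI rats and of 3 vehicle and 6 TGFBRi SD rats, and from whole glands of 3 vehicle and 6 TGFBRi SD rats. The authors had kept only those sorted single cells that had no Ptprc read and at least 2 keratin reads, and had then taken out cells of one sort that clustered with the other. Keratin levels in the sorted libraries therefore hold for cells already chosen on keratins and on lineage. Whole-gland cells had no such filter, and their libraries were made with a different kit, which reads from the opposite end of an RNA.

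Keratins are the intermediate filament proteins of epithelial cells. A type I keratin (such as KRT14, KRT15 and KRT17) pairs with a type II keratin (such as KRT5) to build the filament, which hemidesmosomes anchor to the basement membrane and desmosomes join to neighboring cells. In the mammary duct KRT5 and KRT14 mark the basal layer, which is largely contractile myoepithelium, whereas KRT8, KRT18 and KRT19 fill the luminal layer. KRT5 and KRT14 form the usual pair of basal cells. KRT15 is known from basal and stem-like cells of stratified epithelia, and KRT17 from skin appendages, myoepithelium and stressed or wounded epithelium. In the RefSeq annotation of GRCr8, KRT5 lies on chromosome 7 between KRT6A and KRT71 of the type II cluster. The other members lie on chromosome 10 in the type I cluster, in the order KRT15, KRT19, KRT9, KRT14, Ka11, KRT16, KRT17 and KRT42. KRT14, KRT16, KRT17 and KRT42 are close paralogs, so reads they share are an uncertainty in their counts. Bulk reads were counted without regard to strand, so reads of a gene and of any antisense partner cannot be told apart.

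The Krt5 promoter is shown because Krt5 is the member whose bulk level in basal cells passed the treatment test in both young and adult rats. Of the 4 members only Krt5 had an entry in the promoter table used here. The 250 bases before its start site (RefSeq, GRCr8, chr7:134730570-134730819, minus strand, written 5′ to 3′ in the direction of transcription) read:
Krt5 promoter: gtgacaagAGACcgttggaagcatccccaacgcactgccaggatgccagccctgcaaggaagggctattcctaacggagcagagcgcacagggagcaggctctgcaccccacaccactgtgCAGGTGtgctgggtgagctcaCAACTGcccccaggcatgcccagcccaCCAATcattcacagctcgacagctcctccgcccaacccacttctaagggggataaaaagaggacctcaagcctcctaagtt
Capitals mark, from left to right, GTCT on the reverse strand (read here as AGAC), the core letters of the SMAD binding element, at −242 to −239 from the start. They then mark E-boxes (CANNTG), the letters bound by helix-loop-helix factors and by zinc-finger factors of the SNAI family, at −129 to −124 and −108 to −103, and a CCAAT box at −81 to −77. None of these overlap each other. Each was searched on both strands, and among 33469 rat promoter windows of the same length GTCT occurred in 84.05%, CANNTG in 65.54% and CCAAT in 34.02%, so all are common letters. CATG, the core letters of p63 sites, present in 54.48% of windows, occurred once at −94 to −91. GGGCGG (30.47% of windows) occurred once, on the reverse strand, at −54 to −49, whereas TGANTCA (6.34%) and TATAAA (8.055%, coding strand only) had no match in this window.

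Between 4194912 and 52314784 reads per bulk sample fell on genes. Day 0 basal samples of TGFBRi-treated ACI rats had 4194912, 6562769 and 15136358 reads, of which the first and second are the shallowest of the young ACI set, against 12382292 to 18781674 after vehicle. Median UMIs per cell were 4251 to 15941 in sorted and 2820 to 3885 in whole-gland libraries. Libraries of the same single-cell table shared few cell barcodes, at most 7 per pair in sorted and 284 per pair in whole-gland libraries, where no pair shared over 2.51% of the smaller library.

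The basal keratins separated the basal from the luminal sort in every bulk comparison that could be tested. In day 0 vehicle ACI rats KRT5 had 1409, 1445 and 1177 RPM (reads of a gene scaled to the same total of reads on genes in every sample) in basal cells and 2.24, 14.2 and 3.33 RPM in luminal cells of the same rats, without overlap. KRT15 had 2844, 2253 and 2756 RPM in basal and 20.2, 50.6 and 42.2 RPM in luminal cells, and KRT17 3639.6, 3097 and 1714 against 36.8, 77.5 and 47.3 RPM. On the log2 scale of normalized values plus 1, the basal minus luminal difference was 8.07 ± 0.62 (SE) for KRT5, 7.72 ± 0.52 for KRT14, 6.16 ± 0.60 for KRT15 and 5.66 ± 0.54 for KRT17. All 4 were higher in basal cells by limma, in a comparison where 20.5% of all genes were called and 12.4% were called in that direction. All 4 were also called higher at day 7 (8.45, 6.04, 5.48 and 5.69 in the same gene order, with 14.7% of genes called and 8.22% called higher) and at day 14 (8.12, 7.79, 5.36 and 6.83, with 19.3% called and 10.8% called higher). Changes of this difference between days were not tested. These are sums over many cells, and fewer cells of a type cannot be told apart from less RNA per cell in any bulk sample.

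Luminal samples of SD rats held more of KRT5, KRT14 and KRT17 in relation to their basal samples, and 1 vehicle rat stood apart. Its luminal sample had 179.8 RPM of KRT5 against 17.3 to 32.7 in the other three, and 1309 RPM of KRT14 against 134 to 294. The SD day 0 differences were 4.46 ± 0.57 for KRT5, 2.44 ± 0.48 for KRT14, 5.85 ± 0.54 for KRT15 and 2.85 ± 0.48 for KRT17, all called, with 40.9% of all genes called and 21.8% called higher in basal cells. In NMU-exposed vehicle rats they were 6.50, 4.46, 5.62 and 4.12, all called, with 27.3% of genes called and 12.4% called higher. ACI and SD samples were scaled apart, so these differences between strains were not tested. The summed level of 9 basal marker genes other than keratins ran from 174 to 669 RPM over the SD vehicle luminal samples, and their part in the keratin levels was not tested.

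Genes that act with the basal keratins were called together with them between the day 0 ACI sorts. Of the luminal keratins, 3 of 3 tested were lower in basal cells (KRT18 by a log2 difference of −4.85, KRT8 −2.48 and KRT19 −2.28). All 8 contractile genes were higher (ACTA2, smooth muscle actin, 8.91, CNN1, calponin, 8.77 and MYH11, smooth muscle myosin, 9.82). Of 6 basal regulator and marker genes 5 were higher, among them the transcription factors TP63 (10.4) and SNAI2 (7.17) and the cadherin CDH3 (6.13). Of 6 hemidesmosome genes 3 were higher, led by the collagen COL17A1 (11.2), and of 7 desmosome genes 3 were higher (DSC3 8.20, DSG3 6.14) and 1 lower. Other keratins counted 3 higher of 7 (KRT13 4.17, KRT16 3.95 and KRT23 2.86). In SD rats 3 of 3 luminal keratins were lower (KRT18 −4.92, KRT19 −4.07), and 8 of 8 contractile genes, 6 of 6 regulators and 5 of 6 hemidesmosome genes were higher.

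**Figure D1:**
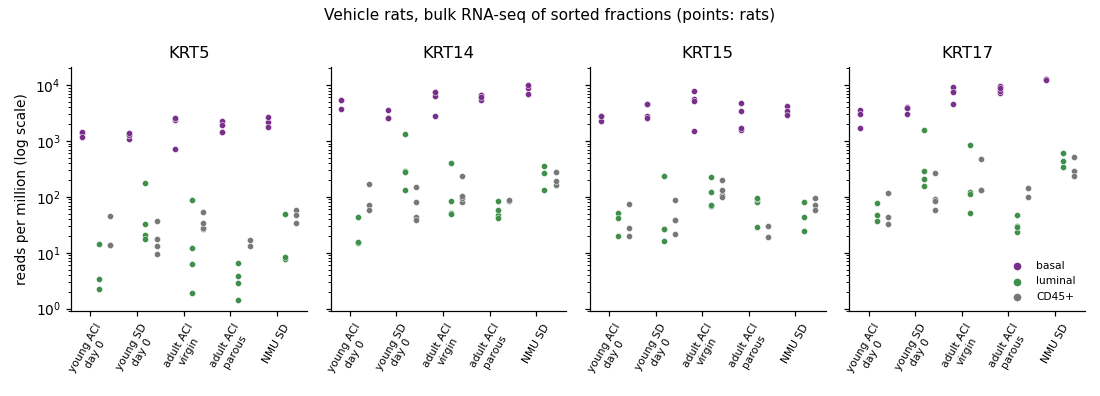
RPM (log scale) of each basal keratin in vehicle rats, by data set (horizontal axis) and sorted fraction (basal, luminal and CD45+, colors); each point is 1 rat. Basal samples lie between 715 and 13087 RPM for the 4 genes, and for each gene all basal samples of a data set lie above all its luminal samples.

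Sorted single-cell libraries showed the same direction, in cells from which the authors had removed those clustering with the other sort, so the size of this difference depends on that removal and was not compared with the bulk samples. In vehicle ACI rats the basal minus luminal log2 difference of UMIs summed per library was 9.28 ± 0.65 for KRT5, 9.55 ± 0.28 for KRT14, 6.59 ± 0.13 for KRT15 and 7.78 ± 0.16 for KRT17. All 4 were higher in basal libraries by edgeR, where 66.8% of genes were called and 33.6% called higher. In vehicle SD rats the differences were 8.90 ± 0.28, 6.34 ± 0.29, 7.38 ± 0.34 and 6.70 ± 0.23, all called, with 53.8% of genes called and 27.6% called higher. In the basal sort of ACI rats 65.3 to 88.5% of vehicle cells and 62.2 to 73.1% of TGFBRi cells per rat had UMIs of all 4 genes.

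TGFBRi lowered KRT5 and KRT15 in bulk basal samples of young ACI rats at day 0. KRT5, the type II partner of the basal filament, had 1409, 1445 and 1177 RPM after vehicle and 292, 712 and 723 RPM after TGFBRi. Every treated rat lay below every vehicle rat. The log2 fold change was −1.44 ± 0.31 (adjusted p = 0.0245 by limma). KRT15 had 2844, 2253 and 2756 RPM after vehicle and 263, 1197 and 921 RPM after TGFBRi, a log2 fold change of −2.09 ± 0.55 (adjusted p = 0.049), again without overlap. KRT14, the type I partner of KRT5, had 5325, 5364 and 3794 RPM after vehicle and 1178, 2541 and 3365 RPM after TGFBRi. Its groups did not overlap, but its log2 fold change of −1.25 ± 0.39 did not pass (adjusted p = 0.0762). KRT17 had 3639.6, 3097 and 1714 RPM after vehicle and 624, 1599 and 1550.5 RPM after TGFBRi, and its fold change was −1.32 ± 0.48 on the log2 scale (adjusted p = 0.108). The 2 calls of 4 members stand against 3.34% of all 15643 genes called and 0.837% called lower, and the median over the members was −1.38 against 0.30 over all genes. Basal-sort single-cell libraries of ACI rats at day 0 gave −0.28 (KRT5), −0.30 (KRT14), −0.04 (KRT15) and 0.50 (KRT17). Of these only KRT14 and KRT17 were called, and the difference between the assays was not tested.

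The bulk calls of KRT5 and KRT15 depended on the test and on single rats. On the recovered reads edgeR called 0 of the 4 (KRT5 adjusted p = 0.0535, KRT15 0.116), with 4 of 4 at an unadjusted p below 0.05 by limma, while DESeq2 called KRT5 (adjusted p = 0.000615) and KRT15 (0.0224). KRT5 lost its call without vehicle rat LD3L or LD3R (adjusted p = 0.101 and 0.102) or TGFBRi rat LD7R (0.0501), and KRT15 lost it without any one of the 6 rats (0.0572 to 0.154). TGFBRi rat LD10R, the deepest of the 3 treated basal samples, was the lowest in all 4 genes. Without it the log2 fold changes were −1.08 (adjusted p = 0.0186) for KRT5 and −1.49 (0.0685) for KRT15.

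Other markers moved in the same samples. The summed level of the basal marker list was 1796 to 4447 RPM after TGFBRi and 6012 to 6783 RPM after vehicle, that of leukocyte genes 56.7 to 81.5 against 7.51 to 25.6 RPM, and that of fibroblast genes 2701 to 33222 against 3482 to 8933 RPM. Luminal keratins summed to 1313 to 2996 RPM after TGFBRi and 2026 to 2567 RPM after vehicle. Whether the mix of sorted cells took part in the keratin difference was not tested. With every library thinned to 4194910 reads the log2 fold changes were −1.32 for KRT5 (adjusted p = 0.0174) and −1.995 for KRT15 (0.0682), so the KRT15 call ended. Of the regulators 1 of 6 was lower (TRIM29, −1.59, adjusted p = 0.0484), whereas 0 of 8 contractile, 0 of 6 hemidesmosome, 0 of 7 desmosome and 0 of 3 luminal keratin genes passed. The contractile genes had a median log2 fold change of −1.11.

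No basal keratin passed the treatment test in basal cells at the later days. At day 7 KRT5 was 2090.2, 1483 and 1579 RPM after vehicle and 1085, 1218 and 999 RPM after TGFBRi, still without overlap, with a log2 fold change of −0.69 ± 0.31 (adjusted p = 0.864). KRT15 was 10294, 6052 and 4307 against 3960.5, 2196 and 1812 RPM, with −1.43 ± 0.55 (adjusted p = 0.814). At day 14 KRT5 was 873, 2006 and 1345 against 1263, 1262 and 964 RPM and the groups overlapped. KRT14 was 6578, 5420.1 and 5618 RPM after vehicle and 4713, 4122 and 4001 RPM after TGFBRi at day 14, without overlap, with a log2 fold change of −0.51. No member was called at day 7 (0.00639% of genes called, 2 of 4 members and 871 genes at an unadjusted p below 0.05) or at day 14 (0.0% called, 0 members and 298 genes). There edgeR called 0 genes at either day and DESeq2 53 and 9, no members among them.

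The change of effect with time was not past the threshold. The effect on KRT15 was 1.47 ± 0.77 higher at day 14 than at day 0 (adjusted p = 0.457), and that on KRT5, which had the lowest p, 1.18 ± 0.43 higher (unadjusted p = 0.015, adjusted p = 0.323). No member was called for the effect at day 7 minus day 0 (0.0% of genes called, 918 at an unadjusted p below 0.05) or at day 14 minus day 0 (0.00639% called). In vehicle rats alone KRT15 was 1.35 higher at day 7 than at day 0 (adjusted p = 0.337) and KRT17 was 1.34 higher at day 14 (adjusted p = 0.353), with 0.192% and 0.0384% of genes called. Vehicle KRT17 ran from 1714 to 3639.6 RPM at day 0 and from 5109.8 to 5741 RPM at day 14, and the ranges do not overlap.

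**Figure D2:**
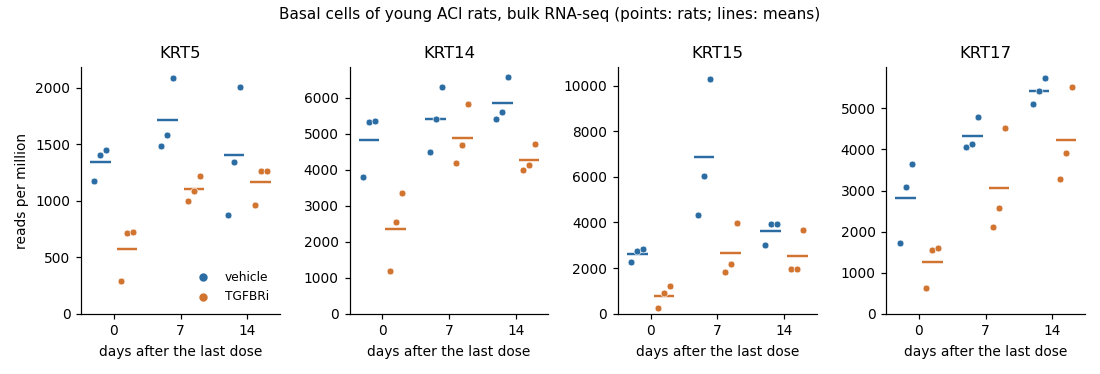
RPM of the basal keratins in basal cells of young ACI rats against days after the last dose; points are rats, lines are means of 3 rats, blue is vehicle and orange TGFBRi. At day 0 all TGFBRi rats lie below all vehicle rats for each gene (292 to 723 against 1177 to 1445 RPM for KRT5), and at day 14 the KRT5, KRT15 and KRT17 groups overlap. How many of all genes separated at day 0 was not counted.

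In luminal cells of the same rats no member passed. At day 0 KRT14 had 15.2, 43.9 and 15.3 RPM after vehicle and 8.29, 12.9 and 7.28 RPM after TGFBRi, without overlap, and a log2 fold change of −1.29 ± 0.60 (adjusted p = 0.245, with 1.01% of genes called). KRT15 was 0.34 and KRT17 0.06. At day 7 KRT14 had 70.2, 82.8 and 67.1 against 45.9, 21.1 and 38.4 RPM, with −1.27 (adjusted p = 0.646), and at day 14 33.7, 47.1 and 19.4 against 37.0, 27.4 and 65.6 RPM. Of all genes 0.0% were called at day 7 and 0.0% at day 14, with 1172 and 1268 at an unadjusted p below 0.05, where edgeR called 0 and DESeq2 252 and 268, no members among them. The day differences of the effect called 0.0% and 0.00659% of genes, and differences between days in vehicle rats 0.685% and 0.389%, with no member called. In vehicle rats KRT15 was 2.03 higher at day 7 than at day 0 (adjusted p = 0.127) and KRT14 1.89 higher (0.148).

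The day 0 effect on KRT15 differed between the lineages only when the rat was taken into account. The effect in basal minus that in luminal cells was −2.43 ± 0.85 (adjusted p = 0.39) without the rat as a block, in a comparison where 0.152% of genes were called. Basal and luminal samples came from the same rats, and a fit that held the rat as replicate block put the difference of KRT15 at −2.43 with an adjusted p of 0.0188, where 171 of 15824 genes were called.

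CD45+ leukocyte samples of young ACI rats held small amounts of the basal keratins at day 0, and TGFBRi lowered all 4. KRT15 had 27.8, 76.04 and 20.2 RPM after vehicle and 1.09, 1.36 and 0.502 RPM after TGFBRi, a log2 fold change of −5.40 ± 0.67 (adjusted p = 0.000578). KRT17 had 43.2, 116 and 32.1 against 1.17, 2.26 and 1.37 RPM, with −5.31 ± 0.57 (adjusted p = 0.000124). KRT5 (13.9, 46.2 and 13.7 against 0.626, 0.589 and 0.639 RPM) and KRT14 (72.4, 170.3 and 58.3 against 2.09, 1.31 and 4.38 RPM) showed the same separation. All 4 were called by limma, edgeR and DESeq2, where limma called 2.85% of genes and 2.01% lower.

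Other epithelial and stromal genes moved in these leukocyte samples too. The basal marker list summed to 3.09 to 7.52 RPM after TGFBRi and 82.4 to 194 RPM after vehicle, with TP63 at 0 in every TGFBRi rat. All 8 contractile genes fell (CNN1 −5.21, ACTG2 −5.30 and MYL9 −3.90), as did TRIM29 (−4.76) and CDH3 (−3.97) among 6 regulators, LAMB3 (−2.08) among 6 hemidesmosome genes and KRT23 (−5.25) among 7 other keratins. Of 3 luminal keratins and 7 desmosome genes 0 passed. Fibroblast genes summed to 978 to 7284 RPM after TGFBRi and 12687 to 32403 RPM after vehicle, and leukocyte genes to 5938 to 6917 and 5610 to 7922 RPM. How many basal cells the leukocyte sort carried over was not tested.

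At day 7 the same direction was seen without a call by limma. KRT15 had 531, 331 and 135 RPM after vehicle and 25.9, 35.3 and 11.8 RPM after TGFBRi, with a log2 fold change of −3.76 (adjusted p = 0.107). KRT17 had 277, 232 and 226 against 43.7, 55.3 and 14.3 RPM, with −2.97 (adjusted p = 0.154). KRT5 and KRT14 changed by −2.88 and −2.57 (adjusted p = 0.429 for both). The groups did not overlap for any of the 4, and how many of all genes separated in this way was not counted. By limma all 4 had an unadjusted p below 0.05, among 631 of 14761 genes. DESeq2 called all 4 (KRT15 7.4e-06, KRT17 0.00136, KRT5 0.0122 and KRT14 0.0135). How many of all genes DESeq2 called at day 7 is not given here, so these 4 calls have no share to stand against. Limma and edgeR called 0.0% of genes. At day 14 KRT14 had 139, 130.2 and 150.1 against 73.2, 54.8 and 161 RPM and the groups overlapped, the changes lay between −0.47 and −0.30, and 0.0% of genes were called (725 at an unadjusted p below 0.05, 0 by edgeR and 17 by DESeq2). SD leukocytes at day 0 ran from 38.5 to 148 RPM of KRT14 after vehicle and from 28.0 to 69.9 after TGFBRi, and 0.0% of genes were called (501 at an unadjusted p below 0.05, 0 by edgeR and 1 by DESeq2).

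Young SD rats showed no call in either epithelial fraction. KRT5 in basal cells was 1097, 1260.0, 1271 and 1370.1 RPM after vehicle and 1738, 1463, 756 and 1249.8 RPM after TGFBRi, with a log2 fold change of 0.01. KRT15 was 4514, 4573, 2824 and 2528 against 5182, 3116, 2163 and 2052 RPM, with −0.25. The TGFBRi rat with 756 RPM of KRT5 was also the lowest of its group for KRT14 (1444 RPM) and KRT17 (1737 RPM). Of all genes 0.0% were called in basal cells (494 at an unadjusted p below 0.05, 0 by edgeR and 4 by DESeq2). In luminal cells KRT5 was 179.8, 32.7, 21.1 and 17.3 RPM after vehicle and 17.1, 8.36, 27.1 and 3.97 RPM after TGFBRi, with −1.89 (unadjusted p = 0.0304, adjusted p = 1). There 0.0% of genes were called (244 at an unadjusted p below 0.05, 0 by edgeR and 1 by DESeq2).

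Adult virgin ACI rats had lower KRT5 in basal cells after TGFBRi. It was 715, 2392, 2540.3 and 2568 RPM after vehicle and 589, 1439, 448 and 959.8 RPM after TGFBRi. The groups overlapped through 1 low vehicle rat, which also had the highest luminal KRT5, KRT14, KRT15 and KRT17 of its group, and the log2 fold change was −1.22 ± 0.36 (adjusted p = 0.0428). KRT17 had 4495, 7803, 9155 and 7639.6 against 4309, 7546, 2917 and 3793 RPM (−0.68 ± 0.27, adjusted p = 0.124), and KRT14 and KRT15 changed by −0.58 and −0.50 (adjusted p = 0.2 and 0.59). Here 8.73% of genes were called and 6.23% called lower, with a median over all genes of −0.25, and edgeR put KRT5 at an adjusted p of 0.0504. Without the low vehicle rat KRT5 changed by −1.61 (adjusted p = 0.00631), and leaving out any one of the other 3 vehicle rats gave 0.103 to 0.128. Of the TGFBRi rats, 3 of 4 ended the call when left out (0.0544 to 0.116).

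Some anchoring genes, 6 of 16, were lower beside KRT5 in these adult cells. Of 9 hemidesmosome genes 4 were lower, among them the integrin subunits ITGB4 (−1.69) and ITGA6 (−0.80), receptors for basement membrane laminin, and the laminin chain LAMB3 (−1.40). Of 7 desmosome genes 2 were lower (DSC3 −1.67 and PKP1 −1.10). TRIM29 fell by 1.26, whereas SNAI2 rose by 1.33 and ACTA2 by 1.92 on the log2 scale. The basal marker list summed to 4529 to 10070 RPM after TGFBRi and 2973 to 8281 RPM after vehicle, and the luminal keratins to 1919 to 3199 against 2902 to 6378 RPM.

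Parous rats gave no call among the members. Basal KRT14 was 6780.5, 6764, 5439.8 and 6209.8 RPM after vehicle and 3763, 4251, 3224 and 4363 RPM after TGFBRi, without overlap, with a log2 fold change of −0.74 (unadjusted p = 0.0166, adjusted p = 0.939). KRT5 was −0.71, KRT17 −0.43 and KRT15 −0.26, where 0.00744% of genes were called. The effect in parous minus that in virgin rats lay between −0.16 (KRT14) and 0.51 (KRT5), not called, in a comparison with 1.04% of genes called. Between parous and virgin vehicle rats 0.0% of genes were called in basal cells (408 at an unadjusted p below 0.05, 0 by edgeR).

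In adult luminal cells KRT14 had lower values after TGFBRi without passing. It was 409.9, 85.9, 50.7 and 49.7 RPM after vehicle and 14.7, 26.1, 29.003 and 53.2 RPM after TGFBRi in virgin rats (−1.84 ± 0.64, unadjusted p = 0.0104, adjusted p = 0.659). In parous rats it was 46.8, 83.8, 41.1 and 58.1 against 7.14, 36.4, 8.31 and 25.7 RPM, without overlap (−1.83, adjusted p = 0.276). Of all genes 0.0% were called in virgin rats (976 at an unadjusted p below 0.05, 0 by edgeR and 15 by DESeq2) and 0.0281% in parous rats. The effects in parous and virgin rats differed for 0.0% of genes (606 at an unadjusted p below 0.05, 0 by edgeR and 3 by DESeq2), and parity in vehicle rats for 0.0% (1361, and 3 by edgeR). KRT17 was 837, 122, 115 and 52.05 RPM in virgin and 30.6, 48.1, 23.6 and 28.7 RPM in parous vehicle luminal cells, without overlap, with a log2 difference of −2.25 (unadjusted p = 0.00553, adjusted p = 0.374).

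After NMU, 87 days later, basal keratins of the normal glands were not called in any comparison. Basal KRT14 was 8759, 6835 and 9980.0 RPM in tumor-bearing vehicle rats, 7977, 6696 and 10125 RPM in tumor-free TGFBRi rats and 10466, 16403 and 11320.5 RPM in tumor-bearing TGFBRi rats. The last group lay above every vehicle rat, with a log2 fold change of 0.69 (adjusted p = 0.134). KRT15 was 0.57 (adjusted p = 0.209) in the same comparison. In basal cells 0.0% of genes were called for tumor-free rats (163 at an unadjusted p below 0.05, 0 by edgeR and by DESeq2) and 1.31% for tumor-bearing TGFBRi rats.

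Luminal KRT5 in the NMU experiment was 7.62, 8.37 and 49.4 RPM in vehicle, 41.3, 37.7 and 43.4 RPM in tumor-free TGFBRi and 31.6, 35.05 and 95.1 RPM in tumor-bearing TGFBRi rats. The log2 fold changes were 1.10 (adjusted p = 0.25) and 1.08 (0.304), in comparisons with 0.948% and 0.212% of genes called. This result depended on vehicle rat C5R. Without C5R, and so with fewer vehicle rats, KRT5 was higher by 1.74 (adjusted p = 0.017) and 1.73 (0.0207). How many of all genes were called in these reduced fits is not given here. The basal marker list of these luminal samples summed to 102.2 to 378 RPM in vehicle, 345 to 440 RPM in tumor-free and 377 to 505 RPM in tumor-bearing TGFBRi rats.

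In EPCAM+ cells of NMU-induced tumors KRT14 was 151, 261 and 191 RPM after vehicle and 209, 191 and 1208 RPM after TGFBRi, and KRT5 107.02, 163 and 142 against 151, 117 and 282 RPM. One TGFBRi tumor was the highest in all 4 genes. The log2 fold changes lay between −0.28 (KRT15) and 0.95 (KRT14), and 0.0% of genes were called (278 at an unadjusted p below 0.05, 0 by edgeR and 6 by DESeq2).

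KRT14 was higher in luminal cells of tumor-bearing vehicle ACI rats with E2 than in those of vehicle rats without E2. It was 37.8, 24.0, 11.7 and 16.8 RPM without E2 and 93.4, 80.9, 113 and 81.7 RPM with E2 in tumor-bearing rats, without overlap, with a log2 fold change of 2.25 ± 0.46 (adjusted p = 0.0196). KRT15 was 40.5, 76.8, 32.8 and 45.99 against 136, 80.5, 103.7 and 94.2 RPM, without overlap, with 1.23 (adjusted p = 0.167). KRT17 was 1.10 (0.209) and KRT5 0.30. The 1 call stands against 1.48% of genes called and 0.846% called higher, and edgeR put KRT14 at 0.0547. KRT14 lost its call without vehicle rat A4-38 of the E2-free group or A4-3 of the E2 group (adjusted p = 0.0756 and 0.0631). The basal marker list summed to 77.5 to 273 RPM without E2 and 112 to 139 RPM with E2, and the luminal progenitor list to 9764 to 36033 and 33434 to 42687 RPM. In this comparison 0 genes of the other keratin, adhesion, regulator and contractile lists passed. The vehicle rats with E2 bore tumors and those without E2 did not, so E2 and tumors cannot be told apart.

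No basal keratin passed the TGFBRi test in luminal cells of the E2 experiment. KRT5 was 8.81, 3.61, 4.39 and 8.42 RPM in tumor-bearing vehicle rats with E2 and 23.4, 15.5, 91.7 and 17.2 RPM in tumor-free TGFBRi rats with E2. The groups did not overlap, and the log2 fold change of 2.09 ± 0.67 did not pass (unadjusted p = 0.00623, adjusted p = 0.465), where 0.0147% of genes were called. The rat with 91.7 RPM of KRT5 also had the highest KRT14 (426 RPM), KRT15 (454 RPM) and KRT17 (421 RPM) of its group, in which the basal marker list ran from 94.4 to 274 RPM. KRT17 was lower in the 2 tumor-bearing TGFBRi rats (44.4 and 119 RPM against 122 to 258 RPM, log2 fold change −1.35, adjusted p = 0.707), with 0.00736% of genes called. Without E2, KRT5 changed by −1.43 and 0.0147% of genes were called.

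**Figure D3:**
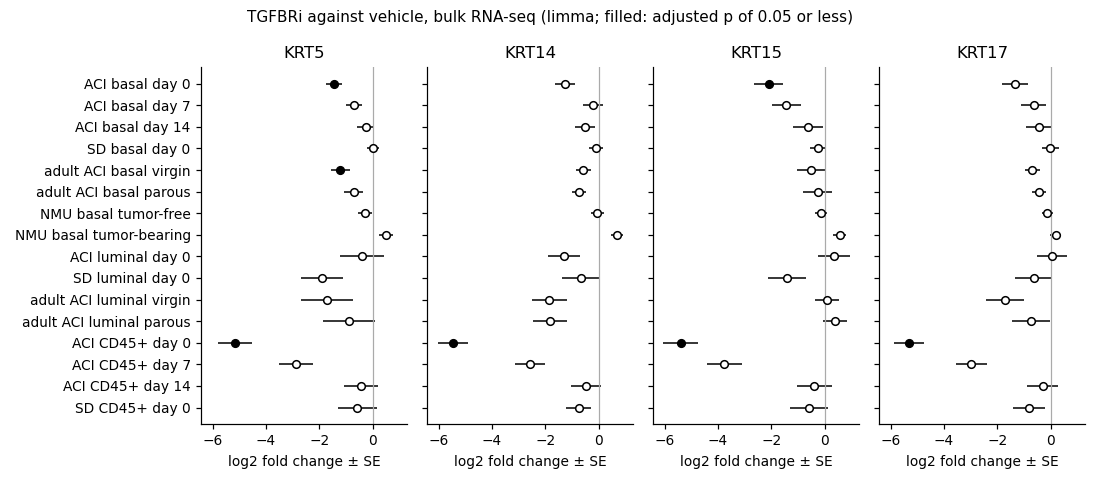
Log2 fold change after TGFBRi against vehicle (horizontal axis, limma, bars of 1 SE) of each basal keratin in 16 bulk comparisons (vertical axis); filled points have an adjusted p of 0.05 or less. KRT5 and KRT15 are filled in basal cells of young ACI rats at day 0, KRT5 in adult virgin basal cells, and all 4 in CD45+ cells of young ACI rats at day 0, where they lie between −5.46 and −5.17.

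Sorted single-cell libraries of ACI rats moved KRT14 and KRT17 in opposite directions in basal cells. KRT14 had 554, 610.2 and 578 CPM (UMIs of a gene scaled to the same total per library) after vehicle and 411, 415 and 381 after TGFBRi, a log2 fold change of −0.30 ± 0.10 (adjusted p = 0.0316 by edgeR). KRT17 had 4091, 3937 and 3183 against 4467, 4254 and 4837, with 0.50 ± 0.13 (adjusted p = 0.0179). The groups did not overlap for either. KRT5 was 1144, 1344 and 929 against 829, 775 and 795 CPM, also without overlap, with −0.28 ± 0.14 (adjusted p = 0.146), and KRT15 was −0.04. The 2 calls stand against 32.9% of genes called. With library totals in place of TMM factors the median gene moved to −0.25, KRT5 was −0.51 (adjusted p = 0.0104) and KRT14 −0.53 (0.0015), and the call of KRT17 ended at 0.27 (0.101). Without vehicle rat ACI8 the call of KRT14 ended (−0.26, adjusted p = 0.111).

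The basal cells of the treatments fell into different clusters. Cluster 0 (2998 cells), led by the stress-response genes HMOX1, SESN2, SLC7A11 and TRIB3, held 63.5 to 70.9% of the basal-sort cells of each TGFBRi rat and 0.0798 to 3.28% of each vehicle rat. Clusters 1 and 3 held 34.8 to 59.1% and 20.8 to 44.96% of vehicle cells and at most 3.47% and 3.17% of TGFBRi cells. The 3 markers that named cluster 0 were the contractile genes ACTA2, ACTG2 and MYLK. The unnamed cluster 9, which had 7328 CPM of KRT17, held 13.4 to 16.6% of the cells of each TGFBRi rat and 0.0798 to 0.311% of each vehicle rat. This cluster had 3 basal markers (ACTA2, ACTG2 and CNN1), but its 10 leading genes held 0 basal markers and 1 of another cell type. In basal-like clusters with another basal marker, which leave out clusters 0 and 9, KRT17 turned to −0.23 (adjusted p = 0.206). The TGFBRi cells left there lay mostly in cluster 4 (6.76 to 12.1% of all their cells), with 2207 CPM of KRT17 and 4874 CPM of KRT15, and the vehicle cells in clusters 1 and 3, so this value compares different clusters and is no test of a change within one kind of cell. Over all named clusters, cluster 0 included and cluster 9 left out, KRT17 was 0.38 (adjusted p = 0.058).

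Genes of the other lists went both ways in these libraries. Of 7 regulators 5 were lower (the oxytocin receptor OXTR −1.18, TP63 −0.65 and SFN −0.51), of 8 hemidesmosome genes 2 (DST −0.37 and COL17A1 −0.25), while of 8 contractile genes 3 were higher (MYL9 0.59, ACTG2 0.34) and MYH11 was lower (−0.37). KRT16, a close paralog of KRT17, was higher by 1.51 while KRT23 was lower by 0.63 and KRT19 by 1.02. Of 9 desmosome genes 2 were higher (JUP 0.56 and PERP 0.38) and 1 lower (DSG2 −0.28). Markers of other cell types moved too, with 4 of 6 mature luminal markers (median 0.94) and 2 of 7 fibroblast markers (median 1.03) higher, and their part in the keratin changes was not tested.

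In luminal-sort libraries of ACI rats KRT15 and KRT17 rose from low levels. KRT15 had 29.9, 30.4 and 26.4 CPM after vehicle and 67.9, 42.9 and 38.2 after TGFBRi, without overlap (1.05 ± 0.20, adjusted p = 0.00889). KRT17 had 19.7, 14.5 and 16.1 against 28.2, 28.5 and 16.9 and the groups overlapped (0.82 ± 0.21, adjusted p = 0.0201). KRT5 (−0.09) and KRT14 (0.10) were not called. The calls stand against 25.3% of genes called and 13.5% called higher. The luminal keratins KRT8, KRT18 and KRT7 rose as well (0.82, 0.65 and 0.61, 3 of 4), whereas the contractile genes CNN1 and ACTA2 fell (−1.97 and −1.17, 2 of 8). Of 7 fibroblast markers 5 were higher after TGFBRi in these libraries, with a median log2 fold change of 6.35 over the list, and their part in the keratin change was not tested. Luminal progenitor-like cells of TGFBRi rats lay mostly in cluster 5 (64.2%) and those of vehicle rats in cluster 7 (62.4%).

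SD basal-sort libraries repeated the opposite directions of KRT14 and KRT17. KRT14 had 321, 251 and 352 CPM after vehicle and 189, 82.1, 100.5, 68.4, 95.96 and 223 after TGFBRi, without overlap (−0.93 ± 0.35, adjusted p = 0.068). KRT17 had 6018, 4688 and 5860 against 6330, 6451, 6498, 5924, 8537 and 7393 and the groups overlapped (0.71 ± 0.23, adjusted p = 0.0505). KRT5 was 0.55 (adjusted p = 0.11) and KRT15 0.79 (0.144), and 24.7% of all genes were called. KRT14 lost its call without vehicle rat SD1 or SD3 or TGFBRi rat SD11 or SD12 (adjusted p = 0.118 to 0.249). KRT17 lost it without any one vehicle rat (0.134 to 0.184), and library totals gave 0.31 (0.195). TGFBRi rat SD13 stood apart, with 40.1% of its basal-sort cells in the endothelium-like cluster 16 and 11.01% in cluster 17, whose markers are those of vascular smooth muscle and pericytes. Without it KRT14 was −0.81 (adjusted p = 0.084) and KRT17 0.75 (0.0489). In basal-like cells alone KRT17 had 5306 to 6286 CPM after vehicle and 6674 to 8930 CPM after TGFBRi, without overlap, and over the named clusters it was 0.79 (0.0209) and KRT14 −0.86 (0.0463). Vehicle basal-like cells lay mostly in cluster 6 (80.7%) and TGFBRi cells in clusters 1, 5 and 3 (38.4%, 31.3% and 28.4%), of which cluster 5 was 97.5% from 1 rat. Of 7 regulators 2 fell (TP63 −1.04 and OXTR −1.37), as did 2 of 8 hemidesmosome genes (the plakin DST −1.64 and COL17A1 −0.54) and 1 of 9 desmosome genes (DSG2 −0.76). Of 8 contractile genes 5 rose, ACTG2 by 0.78, and 2 fell (MYH11 −1.33 and MYLK −0.79). KRT16, 1 of 6 other keratins, rose by 1.10 and KRT8, 1 of 4 luminal keratins, by 0.96. In SD luminal-sort libraries no member was called by edgeR or DESeq2 (KRT15 0.89, adjusted p = 0.175, and KRT14 −0.76, 0.277), 0 members had an unadjusted p below 0.05, and 31.9% of genes were called.

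**Figure D4:**
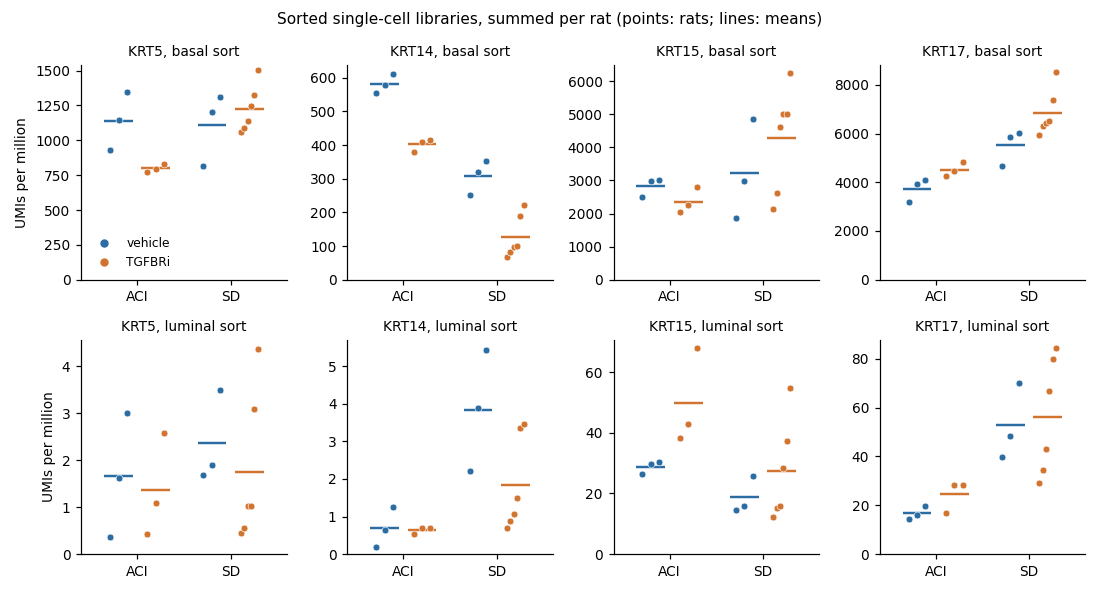
CPM of each basal keratin in basal-sort (top) and luminal-sort (bottom) single-cell libraries of ACI and SD rats (horizontal axis); points are rats, lines are means, blue is vehicle and orange TGFBRi. In basal sorts of both strains KRT14 of TGFBRi rats (381 to 415 and 68.4 to 223) lies below vehicle (554 to 610.2 and 251 to 352), while KRT17 means are higher after TGFBRi.

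Whole SD glands, where cells had not been chosen on keratins, gave the level of each gene in every cell class. In vehicle rats KRT17 had 4931, 5686 and 4278 CPM in basal-like cells, 152, 339 and 461 in luminal progenitor-like, 138, 600.0 and 307 in mature luminal-like and 56.1, 40.2 and 10.1 in all non-epithelial cells together. The ranges of the luminal classes overlapped, and neither was higher in all 3 rats. KRT14 had 1196, 1527 and 2123 in basal-like, 30.6, 63.8 and 67.3 in luminal progenitor-like and 15.6, 36.6 and 13.8 in mature luminal-like cells of the same rats, lower than luminal progenitor-like cells in each of the 3 rats. KRT15 had 1386, 1713 and 1188 in basal-like cells but at most 21.1 in luminal progenitor-like cells, and KRT5 had 288, 360 and 271 in basal-like cells and at most 6.25 in luminal progenitor-like cells. B and plasma cells, which should lack keratins, had 15.3, 49.9 and 11.5 CPM of KRT17 in vehicle rats and 3.55 to 8.11 in TGFBRi rats.

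TGFBRi lowered KRT17 in both luminal classes of the whole gland. In luminal progenitor-like cells it had 152, 339 and 461 CPM after vehicle and 16.1, 24.0, 42.3, 60.5, 13.9 and 14.6 after TGFBRi, without overlap. The log2 fold change was −3.52 ± 0.50 (adjusted p = 0.00154). In mature luminal-like cells it had 138, 600.0 and 307 against 31.6, 18.3, 28.6, 13.2, 36.2 and 29.5, with −3.80 ± 0.39 (adjusted p = 0.000215). KRT14 fell in luminal progenitor-like cells, from 30.6, 63.8 and 67.3 to 20.6, 42.9, 25.5, 31.3, 31.1 and 15.1 CPM with overlap (−1.04 ± 0.32, adjusted p = 0.0273), and was −0.99 in mature luminal-like cells (adjusted p = 0.126). KRT5 was −1.22 ± 0.68 (0.196) and KRT15 0.01 in luminal progenitor-like cells. The members' calls stand against 28.4% of genes called (13.5% called lower) in luminal progenitor-like and 28.6% (15.6% called lower) in mature luminal-like cells. In the luminal sort of SD rats, whose cells were chosen on keratins and run with another kit, KRT17 had 48.4, 69.95 and 39.8 CPM after vehicle and 84.3, 34.6, 79.7, 29.1, 66.6 and 43.2 CPM after TGFBRi, with overlap (0.45 ± 0.37, adjusted p = 0.354), and the difference from the whole gland was not tested. In both luminal classes of the whole gland KRT17 remained called with each rat left out in turn (adjusted p of at most 0.00916), whereas the KRT14 call ended without vehicle rat 4 (adjusted p = 0.116).

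The share of luminal cells with a KRT17 UMI was lower too, in a test that the adjustment left little room to pass. In luminal progenitor-like cells 25.5, 44.3 and 30.1% of cells per vehicle rat and 4.77 to 12.6% per TGFBRi rat had a KRT17 UMI, at median depths of 4406.5 to 9131 and 6028 to 13434.5 UMIs. In B and plasma cells, at 1630 to 2039 and 2320 to 3285 UMIs, the shares were 1.32 to 8.10% and 0.850 to 1.89%. Thinned to 1000 UMIs per cell, the means were 14.9% against 1.72% in luminal progenitor-like, 16.3% against 1.85% in mature luminal-like and 2.12% against 0.490% in B and plasma cells. The thinned difference in luminal progenitor-like cells had a two-sided exact permutation p of 0.0238 over rats, the smallest that 3 against 6 can give, and 0.222 adjusted over 28 tests. Many of the 28 tests would have had to reach this smallest p at once for any to pass, so not passing says little. The B and plasma cell shares, where a UMI can come from free RNA, were also higher after vehicle, and the part of free RNA in the luminal difference was not tested.

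Other keratins and adhesion genes changed in the same luminal cells, more of them lower than higher. In luminal progenitor-like cells 2 of 4 luminal keratins fell (KRT7 −3.17 and KRT8 −0.55), KRT16 fell by 4.26, 5 of 7 desmosome genes fell (DSP −2.18 and PKP1 −2.94), and 3 of 8 hemidesmosome genes fell. The integrin subunit ITGB4 (1.26) and KRT10 (0.57) rose. In mature luminal-like cells 3 of 4 luminal keratins fell (KRT7 −1.94 and KRT19 −1.01), with KRT23 at −2.73 and KRT16 at −2.9999 of the other keratins, 7 of 8 desmosome genes (PKP3 −1.41 and DSG2 −0.995) and 3 of 8 hemidesmosome genes (ITGA6 −0.72), while KRT10 rose by 0.36. Both treatments filled the same main clusters of these classes, cluster 2 with 84.7% of TGFBRi and 95.1% of vehicle luminal progenitor-like cells and cluster 6 with 65.6 and 64.2% of mature luminal-like cells.

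In basal-like cells of the whole gland 2 of 4 members were called, a share near the 43.8% of all genes called, and the treatments filled different clusters. KRT14 rose from 1196, 1527 and 2123 to 2334, 2296, 2187, 2208, 1790 and 1956 CPM with overlap (0.45 ± 0.18, adjusted p = 0.0417). KRT17 fell from 4931, 5686 and 4278 to 3782, 4337, 3449, 3961, 3539 and 2827 with overlap (−0.40 ± 0.16, adjusted p = 0.0412). KRT5 was 0.32 and KRT15 0.46, neither called. These directions are opposite to those of the sorted SD libraries, which were made with another kit and from cells chosen on keratins. The difference in direction was not tested. Cluster 4 held 69.005 to 89.2% of basal-like cells of TGFBRi rats and 3.54 to 33.1% of vehicle rats, and cluster 9, led by FST, KRT17, NRG1 and PHLDA3, 5.33 to 14.8% and 59.7 to 78.7%. Within cluster 4 KRT14 was 0.11 and KRT17 −0.03, with no member called, and within cluster 9 KRT17 was −0.75 (adjusted p = 0.00185). Treated and vehicle cells fell unequally into both clusters, so neither value is a test of a change within one kind of cell. Leaving out vehicle rat 2 ended both calls (adjusted p = 0.17 for KRT14 and 0.154 for KRT17), and vehicle rat 1 ended that of KRT14 (0.245).

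Contractile genes rose in the same basal-like cells, 8 of 8 (MYLK 1.51, ACTA2 0.98 and TPM2 0.75), with 4 of 7 regulators (OXTR 3.25 and TP63 1.06). TRIM29 fell by 0.74, and 5 of 9 desmosome genes fell (DSG3 −1.25, DSP −0.88 and JUP −0.80), as did KRT8 (−0.63) and KRT7 (−0.81) of 4 luminal keratins. Of 6 other keratins 3 rose (KRT75 2.15, KRT13 1.55 and KRT23 0.59) and 0 fell. Of 8 hemidesmosome genes 4 rose, LAMB3 by 0.53, and 1 fell.

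The KRT17 and KRT14 effects differed between luminal and basal-like cells of the same rats. With the rat as a term, the effect in luminal progenitor-like minus that in basal-like cells was −3.09 for KRT17 (adjusted p = 0.000409), −1.47 for KRT14 (0.0127) and −1.33 for KRT5 (0.0977), where 25.4% of genes were called and 12.1% called lower. In mature luminal-like minus basal-like cells it was −3.15 for KRT17 (0.000571) and −1.48 for KRT14 (0.0186), with 21.5% and 11.6% of genes. Between the luminal classes 11.1% of genes were called (3215 at an unadjusted p below 0.05) and 0 of 4 members, with 0 of 4 at an unadjusted p below 0.05.

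**Figure D5:**
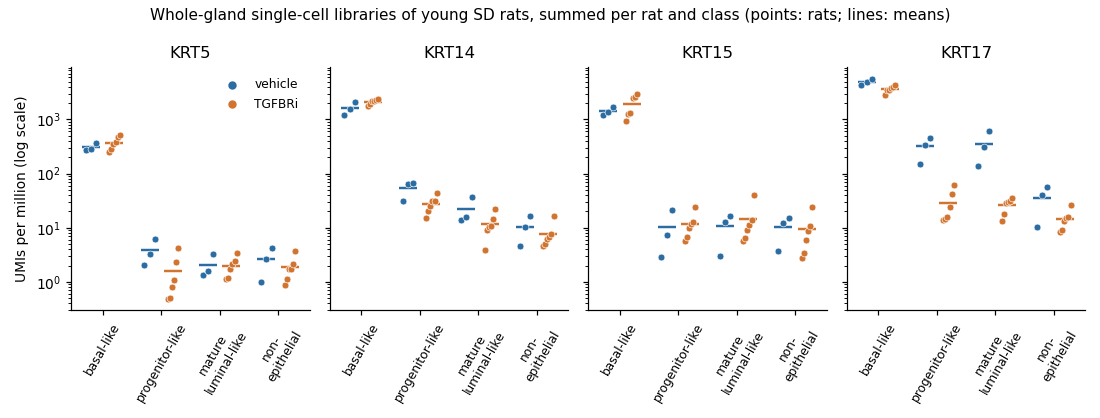
CPM (log scale) of each basal keratin in whole-gland single-cell libraries of young SD rats, by cell class (horizontal axis); points are rats, lines are means, blue is vehicle and orange TGFBRi. KRT17 of TGFBRi rats lies between 13.2 and 60.5 in the luminal classes against 138 to 600.0 after vehicle, while in basal-like cells no rat lies below 2827.

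The members varied together among basal samples of young ACI rats, and less evenly among adult ones. Over the 18 basal samples of young ACI rats the Pearson r of log2 RPM between pairs of members ran from 0.755 to 0.886, and r with the log10 of reads on genes from 0.411 to 0.582, in groups that differ in treatment and depth. Over the 16 adult basal samples it ran from 0.173 (KRT15 with KRT17) to 0.841 (KRT5 with KRT17). Among 9753 genes with at least 50 reads on average, KRT42, the close paralog next to KRT17, was most like KRT14 (r = 0.996 in young and 0.830 in adult samples). KCNK4, IGFBP2 (0.905 and 0.605) and UPK1B (0.902 and 0.278) were also among the 5 most like it. KRT5 was most like FARS2 (0.938 and 0.606), EMC10 (0.934 and 0.643), NKIRAS2 (0.924 and 0.702), GOT2 (0.924 and 0.889) and GNL1 (0.920 and 0.428). For KRT15 they were PCCB (0.934 and 0.824), SAMM50 (0.933 and 0.839), COQ4 (0.932 and 0.307), AP3S2 (0.929 and 0.787) and GLOD4 (0.928 and 0.848). For KRT17 they were ATG101 (0.942 and −0.561), SMIM3 (0.941 and 0.0747), the desmosome gene PERP (0.937 and 0.713), FAM89B (0.935 and −0.368) and CALML3 (0.934 and 0.590). These are descriptions over samples that share treatment groups.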

How the data were processed

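Bulk libraries (SMARTer v4) came from 202 samples of sorted cells. The authors aligned reads with STAR 2.5.1b to rn6, counted genes with HTSeq and scaled samples by size factors of DESeq2 1.30.1, and the deposited values are this normalized signal per gene. Every value above 0 was a whole multiple of 1 step per sample (100% of 2526805 values, tolerance 0.001), so reads were recovered. Rows of no gene in 85 samples (23.1 to 42.5% of their reads) were left out. RPM are recovered reads scaled by the reads on genes, and CPM are UMIs scaled by the library's UMIs. Single-cell files hold UMI counts deposited by the authors from Cell Ranger 4.0.0 or 7.0.0 and Seurat 4.0.0 or 4.1.1, filtered at 100 genes and 15% mitochondrial reads, and in sorted cells on Ptprc and keratin. Sorted cells in a cluster almost wholly of the other sort had been removed as mislabeled by sorting, and the deposited totals of sorted cells equal those the study gives after this step.

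Fits ran over whole tables. Bulk groups were compared by limma 3.58.1 (trend, robust) on log2 of value plus 1, over genes summing to at least 10, all groups of a fraction in 1 model (basal and luminal together where the authors scaled them together), called at 0.05 or less after Benjamini-Hochberg adjustment. edgeR 4.0.16 and DESeq2 1.42.0 on recovered reads were alternatives. UMIs were summed per library, or per rat and class (at least 10 cells), and tested by edgeR quasi-likelihood with TMM at 0.1, with standard errors from DESeq2. Shares were thinned to 2000 UMIs per cell (sorted) or 1000 (whole) and compared by exact permutation. Clusters (Leiden, leidenalg 0.10.2, resolution 0.8, 20 neighbours, 30 components of 2000 variable genes without keratins) needed at least 3 markers to be named, and no doublet caller was run. Cluster 9 of the ACI sorts had 3 basal markers but was left unnamed. Parts of 1 rat counted once. Other tools were R 4.3.3, Python 3.11.15, numpy 2.4.6, pandas 2.3.3, scipy 1.17.1, igraph 0.11.9 and matplotlib 3.10.9, and the fits were tested on simulated data.

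Named genes were the members, up to 3 genes with the lowest adjusted p per list where a member was called, and the 5 genes most like each member, of which a few are not reported here. Genes leading clusters were named after their values were seen. Members and lists were chosen with earlier results of these data known. The labels disagree on rat LD2LR, taken as vehicle, and on the day of the CD45+ sample of LD9R, taken as day 7. Basal and luminal samples of a young or NMU rat come from the same rat, so the rat is a true pairing (r of deviations 0.04 to 0.86 in ACI and −0.01 to 0.26 in SD samples). Libraries and rats are the replicates, and counting intervals would cover counting error only. Overlap of groups is given for the members only, and how many of all genes separated in this way was not counted.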

Additional observations from a re-analysis of the deposited data

Results flagged for a closer look

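A rat far from the rest of its group was found in 20 of 88 sets of values tested, and several sets shared a rat. Chance gives about 1 in 20 only for normally distributed values, and RPM and CPM were tested here without a log scale. Groups of 3 rats or fewer could not be tested. All values here are RPM unless said otherwise, with the nearest other rat in parentheses. In luminal cells of tumor-free TGFBRi rats with E2 the highest rat had 426.12 of KRT14 (108.23), 453.6 of KRT15 (149.66) and 91.736 of KRT5 (23.411). In vehicle rats without E2 the highest luminal value of KRT17 was 199.1 (74.017). Among SD vehicle luminal samples 1 rat had 1308.8 of KRT14 (294.34), 239.05 of KRT15 (26.918), 1559.4 of KRT17 (284.52) and 179.83 of KRT5 (32.735). Among TGFBRi luminal samples of SD rats the highest KRT14 was 548.31 (188.31). In SD basal cells the lowest TGFBRi rat had 1444.2 of KRT14 (2984.2) and 1737.1 of KRT17 (4554.2), while of the vehicle rats 1 was high in KRT14 at 3510.9 (2609.7) and 1 low in KRT17 at 3087.8 (3856.5). In SD CD45+ cells 1 vehicle rat had 266.66 of KRT17 (91.764).

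In adult virgin vehicle rats the lowest basal value of KRT5 was 715.03 (2391.5). The same rat had the highest luminal values of its group, 409.92 of KRT14 (85.856), 836.85 of KRT17 (122.02) and 86.97 of KRT5 (11.973). In parous TGFBRi rats 1 luminal sample had 142.72 of KRT15 (76.859). In mature luminal-like cells of the whole gland 1 TGFBRi rat had 39.755 CPM of KRT15 (14.097).

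The TGFBRi effect differed between classes of the whole gland by edgeR with the rat as a term. Luminal progenitor-like minus basal-like cells gave −1.3261 for KRT5, −1.4749 for KRT14 and −3.0907 for KRT17 on the log2 scale, and mature luminal-like minus basal-like cells −1.4811 for KRT14 and −3.1476 for KRT17.

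CD45+ samples of the NMU experiment entered no comparison above. In tumor-bearing TGFBRi rats their lowest and median values exceeded the highest vehicle rat for each gene. This group was flagged for that separation and no test was run. How many of all genes separated in this way was not counted. KRT5 had a median of 205.3 and a lowest value of 196.36 against at most 59.338 after vehicle, KRT14 836.42 and 510.94 against 277.84, KRT15 522.31 and 329.48 against 95.674, and KRT17 860.27 and 537.92 against 527.01. In tumor-free TGFBRi rats the ranges overlapped those of vehicle rats for each gene. Directions were mixed among the other CD45+ samples outside the comparisons. In adult virgin rats KRT17 ran from 9.77 to 97.04 after TGFBRi and from 132 to 478 after vehicle, while in parous rats the median of KRT15 was 34.8 after TGFBRi and 24.6 after vehicle, with overlap. One of the tumor-bearing TGFBRi rats had 7039 RPM of KRT14, near the level of basal cells. The part of carried-over basal cells was not tested.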

How the results depend on the processing

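Values in this paragraph are the number of the 4 basal keratins called, unless a gene is named. In basal cells of young ACI rats at day 0 (2 as reported) edgeR gave 0, reads thinned to the smallest library 1, and leaving out 1 rat 0 to 1. In luminal cells at day 0 only the groups compared gave 1. In CD45+ cells at day 7 DESeq2 gave 4. In adult virgin basal cells (1) edgeR and only the groups compared gave 0 each, and leaving out 1 rat 0 to 2. In NMU luminal cells leaving out 1 rat gave 0 to 1 for tumor-free and for tumor-bearing TGFBRi rats. For E2 against none (1) edgeR gave 0 and leaving out 1 rat 0 to 1. ACI basal-sort libraries (2) ranged from 1 to 3 with a rat left out, SD basal-sort libraries (2) from 0 to 3 with 1 by library totals, SD luminal-sort libraries from 0 to 1 (1 without TGFBRi rat SD10), basal-like cells of the whole gland (2) from 0 to 2, with 0 in the largest and 1 in the second largest cluster, luminal progenitor-like cells (2) from 1 to 3, and mature luminal-like cells (1) from 1 to 2 with 2 by DESeq2. In ACI basal-sort cells of clusters with a marker beyond contractile genes, an alternative chosen after seeing the data like the cluster and library-total ones, KRT17 reversed to −0.23, with treated and vehicle cells then in different clusters. With a step such as from 2 to 3, or 0 that stayed 0, taken as the same, the count held in 210 settings. It rose from 0 in 3, fell to 0 in 5 and otherwise moved in 5. With a rat left out it held in 352, rose from 0 in 3, fell to 0 in 14 and otherwise moved in 11. Only 9 of 31 treatment comparisons had a call, so these tallies say little about how firm the calls are.

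With the rat as a replicate block, 1 basal keratin (KRT15) differed in its day 0 effect between basal and luminal cells of ACI rats (0 without the block), and the block changed no call between lineages. Names shared by adult vehicle and TGFBRi rats (r −0.18 to 0.16) and by whole-gland rats 1, 2 and 4 (r −0.46 to 0.40) did not pair the samples. A replicate block on them gave 1 call in adult virgin basal cells (KRT5), 1 in basal-like cells (KRT17) and 3 in luminal progenitor-like cells. Groups of 3 or 4 rats, the shallow day 0 basal samples and low luminal levels limit what these comparisons could detect.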
